A study of Homo sapiens with 12 samples.

Results

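Mitochondrial ribosomal proteins were followed at the RNA level through 73 protein-coding genes whose symbols begin with MRPL or MRPS and a digit. These were the genes with at least 50 reads summed over all 12 samples, taken from 78 such symbols in the annotation and from 16708 gene identifiers that reached the same minimum among 54127 in the count tables. The cells were C4-2, a human line that descends from the prostate cancer line LNCaP, which the labels call prostate cancer epithelium and which was grown in medium with serum. Knockdown samples (siCHKA, n = 6) received an siRNA pool directed at CHKA (50 nM), the gene of choline kinase alpha, which makes phosphocholine for membrane lipid synthesis. Control samples (siNT, n = 6) received nontargeting siRNA with the same reagent and protocol, and the groups shared every other condition the labels give. A single cell line and a single siRNA pool were used. The study calls its knockdown samples biological replicates, with a number that differs between its panels, and the labels do not say what a replicate was, so p-values here measure the spread between these samples.

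Mitochondria carry their own ribosome, which translates the few messenger RNAs of the mitochondrial genome into core subunits of the respiratory chain and the ATP synthase. Its RNAs are made inside the organelle, whereas all of its proteins are encoded in the nucleus, made in the cytosol and imported. Compared with its bacterial relative it has lost ribosomal RNA and gained proteins, so some members have a bacterial counterpart and others are found only in mitochondria.

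CHKA itself was low in every knockdown sample, at 2.75 ± 1.03 CPM after siCHKA and 40.7 ± 2.55 CPM after siNT (SD, n = 6 each), where CPM is the read count of a gene scaled by TMM to a library of fixed size. Its log2 fold change was -3.88 (standard error 0.14, edgeR adjusted p = 5.89e-13). Prostate markers such as KLK3 and KLK2 were present in all 12 samples, with KLK3 between 1726 and 3811 CPM, while CD3E and DES, which mark T cells and muscle, had no read. Of the other genes listed as markers of other cell types, PTPRC of leukocytes reached 0.256, COL3A1 of fibroblasts 0.642, MYH11 of smooth muscle 0.968 and VWF of endothelium 3.65 CPM at most, but the collagen gene COL1A1 ran from 11.4 to 18.2 CPM in siNT and from 23.8 to 30.0 CPM in siCHKA samples. Its part in the results was not tested. Reads on genes ranged from 10685184 to 24246055 per sample. The knockdown samples fell into replicates 1, 3 and 5 and replicates 2, 4 and 6: a chi-square per degree of freedom between libraries was 2.44 to 9.44 within these sets and 12.8 to 25.2 across them, where pure counting noise gives a value near 1. Among controls, replicates 5 and 6 were close to each other (2.44) and farther from replicates 1 to 4 (7.21 to 30.3). Replicates 1 to 4 were themselves 5.10 to 19.0 apart, a range that overlaps the last, so they did not form a close set. No source names a batch for these sets, and the member counts and the calls that end are given for each set apart.

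Of the 73 members, 25 were lower and 10 were higher after siCHKA, and 38 did not pass the test (edgeR quasi-likelihood test over 14501 genes, adjusted p below 0.05). Over all tested genes 62.2% passed, 30.1% lower and 32.1% higher, against 34.2% and 13.7% of the members. The share of falling members was thus near the background in this fit, and above it in some other fits given below. Protein-coding genes whose mean level lay within the range of the members included 43.9% lower and 23.7% higher genes, and their median log2 fold change of -0.10 stood beside the members' -0.08. Over all tested genes the median was 0.03. Shares within the level range of the members were not computed for the other fits, where the background is all tested genes. Most member changes were small: their median absolute log2 fold change was 0.15, against 0.31 over all tested genes. Changes of at least 1.5-fold were found for 4 members, MRPL17, MRPS27, MRPS6 and MRPL35, all lower, with 11.3% of all tested genes lower and 13.4% higher by that rule. In bulk samples, fewer cells with a transcript and less of it per cell cannot be told apart.

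**Figure D1:**
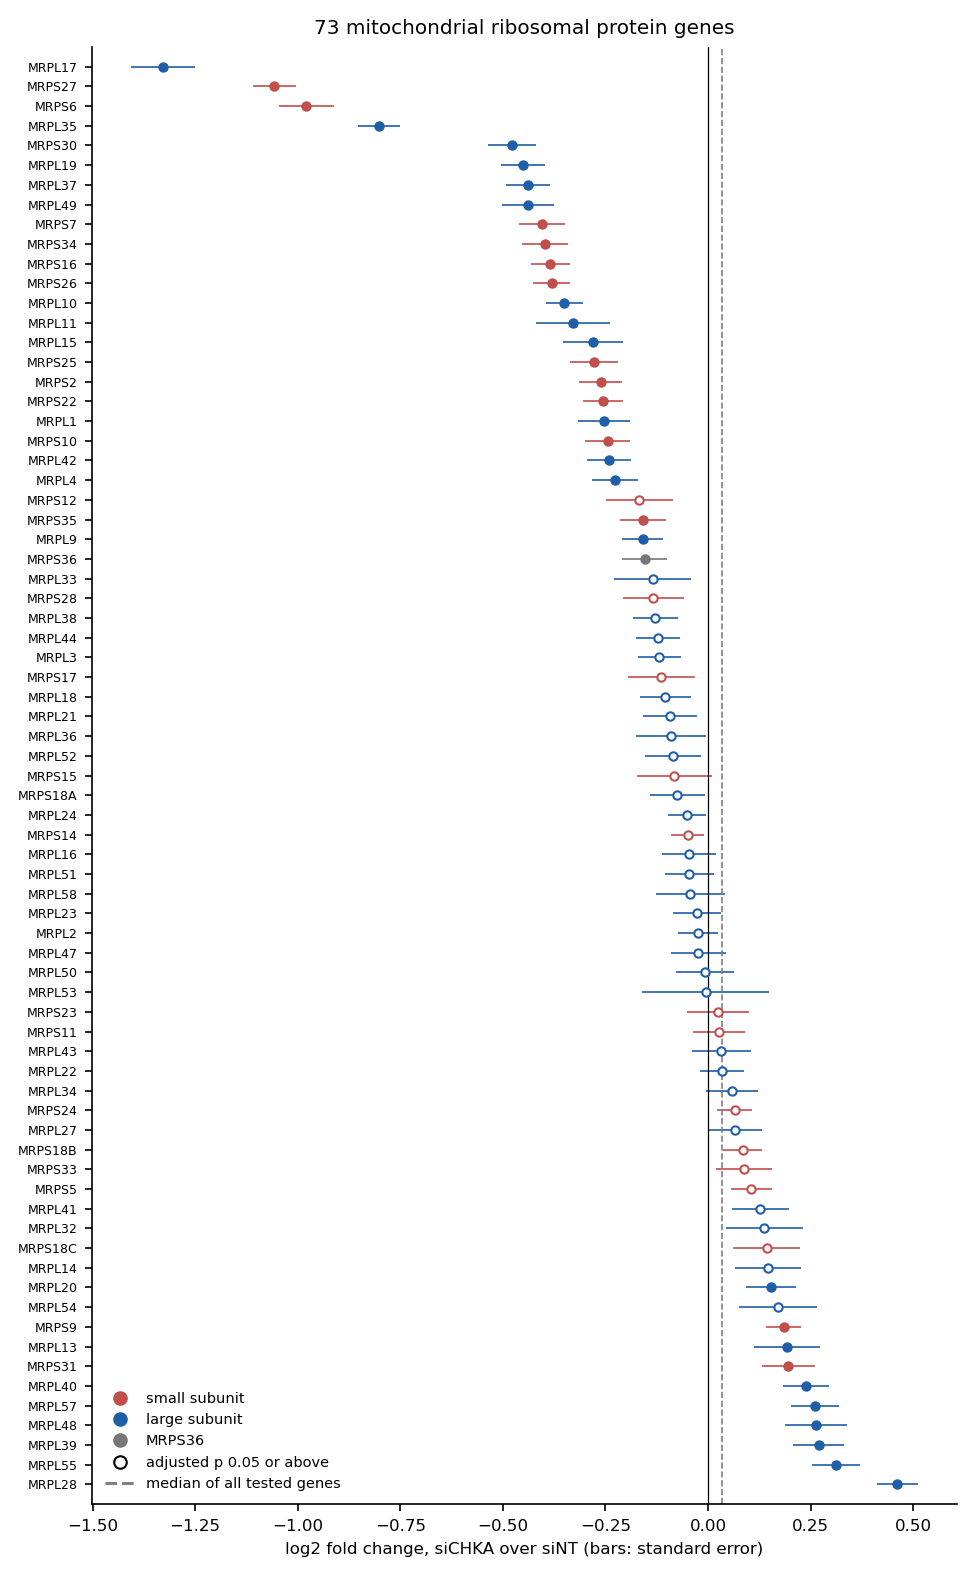
Log2 fold changes (siCHKA over siNT, horizontal axis) of the 73 mitochondrial ribosomal protein genes in order of size, with bars of 1 standard error, colours for the subunit and open circles for adjusted p of 0.05 or above. MRPL17, MRPS27, MRPS6 and MRPL35 lie well to the left of the rest, the highest is MRPL28 at 0.46, and the dashed line marks the median of all tested genes at 0.03.

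In the small subunit, which binds the messenger RNA and decodes it, 11 of 25 tested genes were lower and 2 were higher, with a median log2 fold change of -0.13. These were 44% and 8% of its genes, against 30.1% and 32.1% of all tested genes. Among protein-coding genes within the level range of the members the shares were 43.9% and 23.7%, so the share of falls was close to that at similar level. MRPS27, an RNA-binding protein of the pentatricopeptide repeat family with no bacterial counterpart, had the strongest fall. The MRPS27 gene (ENSG00000113048) lies on the minus strand of chromosome 5 at chr5:72214953-72321717 (GRCh38). Its level ran from 269 to 298 CPM in siNT samples (median 287) and from 125 to 152 CPM in siCHKA samples (median 134). All 6 knockdown samples were below all 6 controls, and the level was 48.0% of the control mean. The log2 fold change was -1.06 (standard error 0.05, edgeR adjusted p = 2.67e-11). An exact two-sided permutation test of log2 CPM gave p = 0.002165, the smallest that 6 against 6 samples allow.

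MRPS6, the counterpart of bacterial ribosomal protein S6, fell almost as far from a much lower level. The gene (ENSG00000243927) is on the plus strand of chromosome 21 at chr21:34073224-34143034. Its siNT values lay between 31.0 and 37.1 CPM (median 34.8) and its siCHKA values between 15.8 and 20.2 CPM (median 17.1), without overlap. The log2 fold change was -0.98 (standard error 0.07, edgeR adjusted p = 1.40e-09). SLC5A3, an inositol transporter gene that overlaps MRPS6 in the annotation, did not pass the test. Reads that fall on overlapping genes are left out of the counting, so the level of MRPS6 may be understated.

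The other named falls of the small subunit were smaller. MRPS7, a protein of the head of the subunit, was measured at 111 ± 2.71 CPM after siCHKA and 147 ± 13.3 CPM after siNT (SD, n = 6 each), a log2 fold change of -0.41. MRPS34, a mitochondria-specific protein, was measured at 62.3 ± 3.05 against 82.0 ± 6.49 CPM, a log2 fold change of -0.40. In both genes the highest knockdown sample was below the lowest control. MRPS16 (-0.38), MRPS26 (-0.38), MRPS25 (-0.28), MRPS2 (-0.26), MRPS22 (-0.26), MRPS10 (-0.24) and MRPS35 (-0.16) were also lower, and of these only MRPS35 had overlapping groups. Of the 11 falling genes, MRPS16, MRPS26, MRPS10 and MRPS35 overlap no coding gene with counts, MRPS6 overlaps one on its own strand and the other 6 on the opposite strand. Whether the authors' counting used strand is not given in the sources used here.

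The 2 small subunit genes that were higher were MRPS31 and MRPS9. MRPS9, the counterpart of bacterial S9, ran from 59.8 to 65.6 CPM in siNT and from 66.4 to 72.5 CPM in siCHKA samples, with no overlap and a log2 fold change of 0.18 (standard error 0.04, edgeR adjusted p = 0.00152). MRPS31 was measured at 32.7 ± 3.14 against 28.6 ± 1.20 CPM (SD, n = 6 each), with overlapping groups and a log2 fold change of 0.20. It did not pass with siCHKA replicates 1, 3 and 5 only (0.10), with siNT replicates 1 to 4 only (0.16) or without a filter on low counts (0.17). MRPS31 also has 4 annotated pseudogenes named after it, from which its reads may not be fully separated.

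Paralogous proteins of the S18 family sit in both subunits, MRPS18B and MRPS18C in the small subunit and MRPS18A in the large one. None of the 3 genes passed the test. Their log2 fold changes were -0.07 for MRPS18A, 0.08 for MRPS18B and 0.14 for MRPS18C, each with a standard error between 0.05 and 0.08. MRPS18B was the most abundant, at 106 CPM per kb of its canonical transcript in siNT samples, against 21.4 for MRPS18A and 9.92 for MRPS18C.

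The large subunit holds the peptidyl transferase centre, and 13 of its 47 tested genes were lower and 8 were higher, with a median log2 fold change of -0.05. These were 27.7% and 17.0% of its genes, against 30.1% and 32.1% of all tested genes. MRPL17, whose bacterial counterpart L17 lies near the exit of the peptide tunnel, fell farthest of all members. The gene (ENSG00000158042) is on the minus strand of chromosome 11 at chr11:6680385-6683340. In siNT samples it was measured at 169, 176, 176, 174, 153 and 141 CPM in replicates 1 to 6, and in siCHKA samples at 55.4, 72.5, 62.5, 73.7, 59.2 and 70.2 CPM. The highest knockdown sample was thus far below the lowest control, and replicates 1, 3 and 5 of the knockdown were each lower than replicates 2, 4 and 6. The log2 fold change was -1.33 (standard error 0.08, edgeR adjusted p = 1.66e-10), which left 39.8% of the control level. No coding gene with counts overlaps MRPL17 and no annotated pseudogene carries its name.

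MRPL35, the counterpart of bacterial L35, was the other large subunit gene past 1.5-fold. It (ENSG00000132313) lies on the plus strand of chromosome 2 at chr2:86199355-86213790. Values ran from 70.7 to 84.2 CPM in siNT (median 73.2) and from 40.3 to 45.5 CPM in siCHKA samples (median 42.6), again without overlap. The log2 fold change was -0.80 (standard error 0.05, edgeR adjusted p = 5.37e-10), and 4 annotated pseudogenes are named after this gene.

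The next falls were in MRPS30, MRPL19, MRPL37 and MRPL49. MRPS30 and MRPL37 are related mitochondria-specific proteins that sit together in the large subunit, in spite of the S in the first symbol. MRPS30 was measured at 77.6 ± 4.46 against 108 ± 9.26 CPM and MRPL37 at 221 ± 11.6 against 299 ± 18.5 CPM (siCHKA against siNT, SD, n = 6 each). Their log2 fold changes were -0.48 and -0.44. MRPL19, the counterpart of bacterial L19 at the contact between the subunits, had a log2 fold change of -0.45 and MRPL49 one of -0.44. The groups did not overlap in any of these 4 genes. MRPL49 overlaps SYVN1, MRPL19 overlaps GCFC2 and MRPL37 overlaps SSBP3, CYB5RL and ENSG00000256407, all on the opposite strand.

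The large subunit is also described by its parts, each of them small and none tested as a list. MRPL10 and MRPL11, which form the stalk that recruits translation factors, were both lower, with log2 fold changes of -0.35 and -0.33. MRPL12, the third stalk protein, had no matching identifier and was not analysed here. Of 6 tested genes of the central protuberance, the upper projection of the subunit, none was lower and 3 were higher, MRPL55 (0.31), MRPL48 (0.26) and MRPL40 (0.24). Of 7 tested genes placed around the exit tunnel, MRPL17 was lower, MRPL39 (0.27) was higher and 5 did not pass. Members with a bacterial counterpart had 14 lower and 5 higher genes of 43 (32.6% and 11.6%, median -0.09). Mitochondria-specific members had 10 and 5 of 29 (34.5% and 17.2%, median -0.05). Over all tested genes 30.1% were lower and 32.1% higher.

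MRPL28, the counterpart of bacterial L28, showed the largest rise. It (ENSG00000086504) lies on the minus strand of chromosome 16 at chr16:366969-371289. Its values were 46.3 to 50.7 CPM in siNT samples (median 49.6) and 63.4 to 72.8 CPM in siCHKA samples (median 65.7), so the groups did not overlap. The log2 fold change was 0.46 (standard error 0.05, edgeR adjusted p = 4.19e-07). PGAP6, a coding gene that overlaps MRPL28 on the same strand, had its own log2 fold change of -0.19.

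The remaining rises were MRPL55, MRPL39, MRPL48, MRPL57, MRPL40, MRPL13 and MRPL20. MRPL57, a short mitochondria-specific protein, was measured at 207 ± 7.29 against 173 ± 16.0 CPM, with a log2 fold change of 0.26 and 5 annotated pseudogenes named after it. MRPL13 (0.19, edgeR adjusted p = 0.0457) and MRPL20 (0.15, edgeR adjusted p = 0.0378) were close to the threshold. MRPL13 lost its call without any of siCHKA replicates 1, 2, 4 and 6 or siNT replicates 1, 4, 5 and 6, and MRPL20 without any of siCHKA replicates 1 to 5 or siNT replicates 1, 2, 5 and 6, with log2 fold changes between 0.11 and 0.20 in those fits. MRPS36, named as a small subunit protein but known as a component of the alpha-ketoglutarate dehydrogenase complex, was lower by a log2 fold change of -0.15 and is counted in neither subunit.

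**Figure D2:**
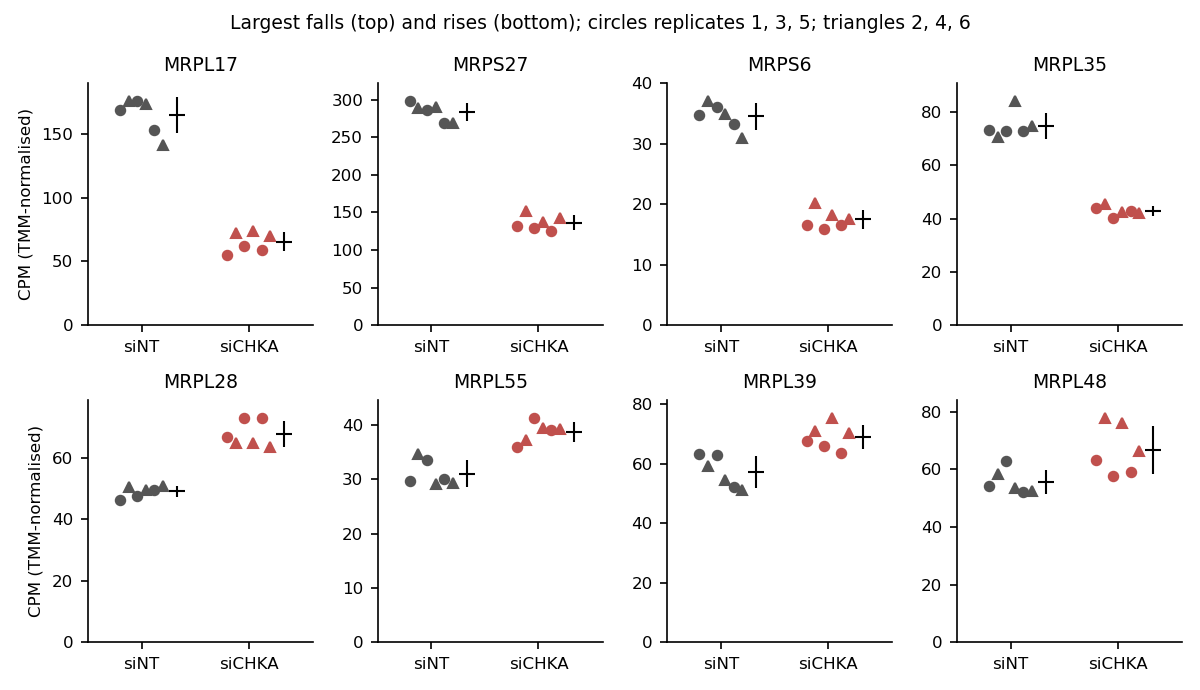
TMM-normalised CPM (vertical axes, each from 0) of the 4 largest falls in the upper row and the 4 largest rises in the lower row, 1 symbol per sample, with the group mean and SD beside them. Circles are replicates 1, 3 and 5 and triangles replicates 2, 4 and 6; the groups are apart in 7 of the 8 panels and overlap in MRPL48, and for MRPL17 the knockdown triangles at 70.2 to 73.7 CPM are above the circles at 55.4 to 62.5 CPM.

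Counting members whose 6 knockdown values all lay on one side of the 6 controls gave 19 lower and 6 higher genes of 73. The corresponding background over all tested genes was 40.6%, with 21.5% lower and 19.1% higher. All of these members passed the test.

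Levels of the members in control cells, expressed as CPM per kb of the Ensembl canonical transcript, had a median of 64.4 with quartiles of 36.5 and 102. The median was 51.4 for small subunit genes and 66.8 for large subunit genes. MRPL51 (213 ± 19.99), MRPS15 (204 ± 34.6) and MRPL37 (202 ± 12.5 CPM per kb, SD, n = 6 each) had the highest values, which did not differ beyond their spread. MRPL53 (4.96 ± 1.06), MRPS17 (8.22 ± 0.281) and MRPS18C (9.92 ± 1.17) had the lowest, and the range spanned 42.9-fold. MRPL53 overlaps CCDC142 on its own strand, and MRPS17 overlaps NIPSNAP2 and a further coding gene on its own strand. Reads on shared stretches are left out of the counting, so both levels, and with them the range, may be distorted. The order depends on which transcript length is used: per kb of all annotated exons of the gene it correlated with the first by a Spearman rho of 0.748 across the 73 members. None of these 6 genes passed the test between groups except MRPL37, and MRPL51, which overlaps NCAPD2, had a log2 fold change of -0.05. MRPL53, with 512 summed reads, was the member nearest the minimum, and MRPL30, with 26 summed reads and a partly shared locus, lay just outside it. The coefficient of variation between control samples had a median of 8.20% over members, from 2.12% to 21.4%, and that between knockdown samples a median of 5.92%.

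The members' joint level did not separate the groups. For each sample the median over members of log2 CPM relative to the control mean was 0.04, 0.05, 0.12, 0.04, -0.09 and -0.15 in siNT replicates 1 to 6 and -0.09, 0.01, -0.09, -0.01, -0.11 and -0.08 in siCHKA replicates 1 to 6. Control replicates 5 and 6 lay among or below the knockdown samples. The group means of -0.06 and 0.00 differed by less than the control SD of 0.10. Control replicates 5 and 6 also had the lowest control values for cytosolic ribosomal protein genes (-0.18 and -0.15) and for nuclear genes of oxidative phosphorylation (-0.15 and -0.14), and knockdown replicates 2 and 4 had the highest knockdown values in all 3 sets. The part of these libraries in the member counts was measured by leaving them out. With siNT replicates 1 to 4 only, 37 of the 73 members were lower and 7 were higher (background 28.7% and 29.6%), with a median log2 fold change of -0.16. The share of falling members was above the background in that fit. However, the samples left out were the controls with the lowest member medians, and leaving them out by itself raises the count of falls. That share therefore cannot show a fall of the members as a set. With siCHKA replicates 1, 3 and 5 only, 28 of 73 were lower and 7 higher (background 29.3% and 30%). With siCHKA replicates 2, 4 and 6 only, 24 of 73 were lower and 12 higher (background 30.7% and 31.5%).

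Calls of 7 members ended in one or both of these knockdown sets. MRPL48, MRPS31 and MRPL13 had log2 fold changes of 0.11, 0.10 and 0.07 with replicates 1, 3 and 5, where none passed, and of 0.39, 0.28 and 0.30 with replicates 2, 4 and 6, where all 3 did. MRPS35 and MRPL11 passed with replicates 1, 3 and 5 at -0.24 and -0.46 but not with replicates 2, 4 and 6 at -0.08 and -0.22. MRPS36 passed with replicates 2, 4 and 6 only (-0.15 and -0.16), and MRPL20 with neither set (0.17 and 0.13). Differences between the knockdown sets were not tested.

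**Figure D3:**
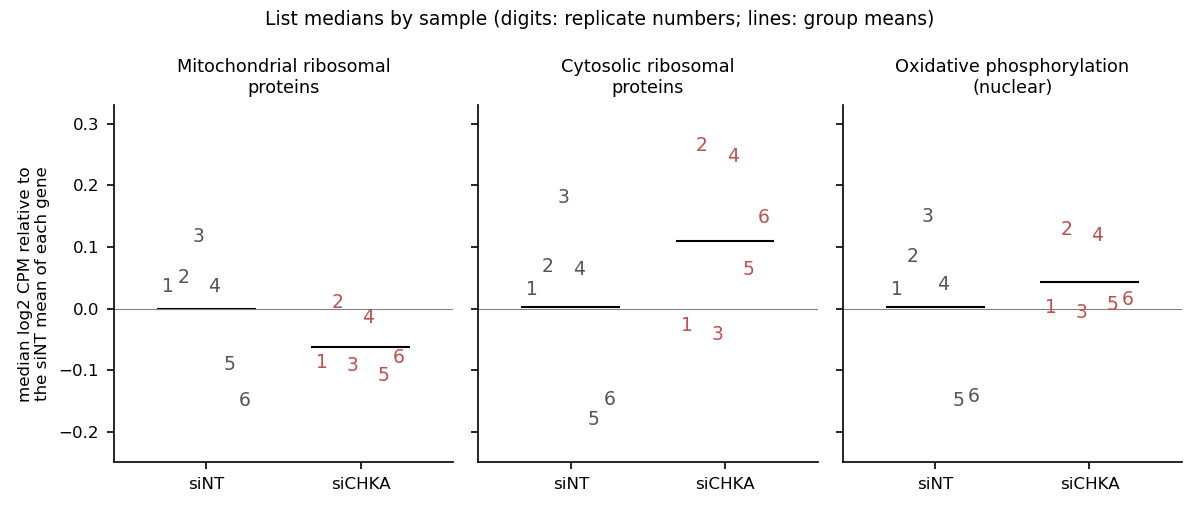
Median log2 CPM over the genes of a list relative to the control mean of each gene (vertical axis), for each sample, drawn as its replicate number, with a line at each group mean, for mitochondrial ribosomal, cytosolic ribosomal and nuclear oxidative phosphorylation genes. For the mitochondrial ribosomal genes the knockdown samples lie between -0.11 and 0.01, inside the control range of -0.15 to 0.12, and control replicates 5 and 6 are the lowest controls in each panel.

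Samples 1 to 3 and samples 4 to 6 of each group were also fitted apart, which gives estimates that share no sample. The log2 fold changes of the 73 members in these fits had a Pearson r of 0.875 and a Spearman rho of 0.787 across genes, which are not independent replicates, and over 14410 genes r was 0.866. In all, 52 of the 73 members had the same sign in both fits, a smaller share than the 11832 of 14410 genes. Of the members, 16 were lower in both fits, 1 (MRPL28) was higher in both and none was called in opposite directions. The matching counts of calls over all genes were not made here. The 16 were MRPL10, MRPL17, MRPL19, MRPL35, MRPL37, MRPL42, MRPL49, MRPS6, MRPS7, MRPS16, MRPS22, MRPS25, MRPS26, MRPS27, MRPS30 and MRPS34. MRPL17 had log2 fold changes of -1.45 and -1.22, and MRPL35 of -0.74 and -0.88. The counts moved with the samples used. With samples 1 to 3, 29 of 73 were lower and 2 higher (background 25.3% and 25.2%). With samples 4 to 6, 17 of 73 were lower and 12 higher (background 25.9% and 24%). The share of falling members was thus above the background only in samples 1 to 3. Of the rises, MRPL55, MRPL39, MRPL48, MRPL57, MRPL40, MRPS31, MRPL13 and MRPL20 did not pass the test in samples 1 to 3, and MRPS9 (0.09) and MRPL20 (0.19) did not in samples 4 to 6.

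Members have short transcripts, with a median canonical length of 1260 bases against 3377 bases for all tested protein-coding genes, and a median 3′ UTR of 464 against 1329 bases. The median GC content was 48.3% and 48.5%. When each sample was given an offset for GC content and exon length, 43 of the 73 members were lower and 10 were higher. The background was 32.6% and 32.1%, so the share of falling members was above it. The median log2 fold change of the members was -0.16. Of the 25 members lower without the offset 24 were lower with it, 8 of the 10 higher members were higher in both, and 19 that had not passed became lower. The count of falling members thus depended on this correction, while the strong falls did not: with the offset MRPL17 was at -1.30, MRPS27 at -1.02, MRPS6 at -1.07 and MRPL35 at -0.71. MRPL55 and MRPL20 lost their calls with it, at 0.04 and 0.00.

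The 3′ UTRs were examined for the 7-base words GCCAGAT and TGCCCTT. These words were picked in an earlier analysis of the same counts because transcripts that held them tended to fall, so the comparison is a description only and the members' own fold changes were among the values used. At least 1 copy was found in 15 of 73 members (20.5%), against 23.6% of the 12296 tested coding genes with a 3′ UTR. Of the members with a word, 11 were lower and 1 was higher (median log2 fold change -0.28). Of the 58 members without, 14 were lower and 9 higher (median -0.05). Among tested coding genes with a 3′ UTR, 1286 of 2906 with a word were lower and 685 higher. Without a word, 2845 of 9390 were lower and 3178 higher. Over all tested coding genes the medians were -0.12 with a word and 0.04 without. Their 3′ UTRs were also longer, with a median of 1506 bases in members with a word and 354 bases in those without.

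Each of the 4 members past 1.5-fold holds a word, and so does MRPL28, which rose. As the words were picked from these counts for such falls, their presence in the deepest falls is a description only. The sequences show which word each of these transcripts holds, in 29 bases of the transcript from GRCh38 with GENCODE release 44. They run 5′ to 3′ with the word in capitals. The last is the stretch of the CHKA transcript, outside its 3′ UTR, that holds GCCAGAT, the word of MRPL17, MRPS6 and MRPL35.
MRPL17, chr11:6681965-6681993, minus strand: ccttctggggaGCCAGATgaccctctctt
MRPS27, chr5:72219592-72219620, minus strand: ctatgtagtgtTGCCCTTaagtacagtgg
MRPS6, chr21:34142598-34142626, plus strand: tgagaagattcGCCAGATtttagccttat
MRPL35, chr2:86210826-86210854, plus strand: gatcagactttGCCAGATttggttaggga
MRPL28, chr16:367314-367342, minus strand: cctgtcaccccTGCCCTTgctgcccctga
CHKA, chr11:68070808-68070836, minus strand: gaattaagtttGCCAGATatttctgcaga

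GCCAGAT is in the sequences of MRPL17, MRPS6 and MRPL35 and TGCCCTT in that of MRPS27, 136, 9, 169 and 1300 bases past the stop codon in that order. The CHKA transcript also holds 3 copies of TGCCCTT, 1 of them in its 3′ UTR. Outside the word none of the sequences matches another in full. MRPL35 and CHKA share the bases ttt just before GCCAGAT, and MRPS6 and MRPL35 share tt just after it. How often other transcripts share such bases was not counted. The siRNA sequences are not given in the sources used here, so the words could not be compared with them, and the part of siRNAs acting on other transcripts in these falls was not tested. MRPL19 holds 3 copies in a 3′ UTR of several kilobases and fell less than the 4 genes with 1 copy. MRPL50, MRPS33 and MRPS18C hold a word and did not pass the test, at log2 fold changes of -0.01, 0.09 and 0.14.

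**Figure D4:**
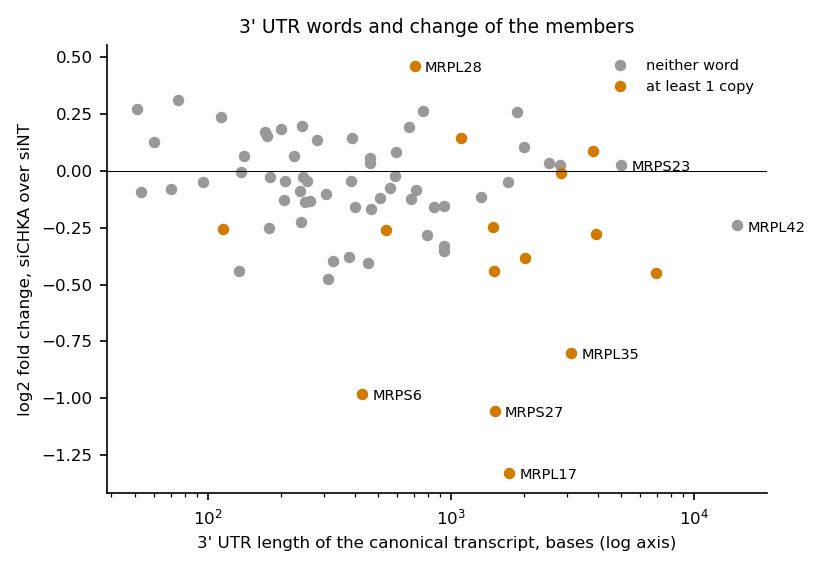
Log2 fold change of each member (vertical axis) against the length of the 3′ UTR of its canonical transcript in bases (log horizontal axis), with orange points for members that hold at least 1 copy of GCCAGAT or TGCCCTT in it. The 4 deepest falls are orange, as is MRPL28 at 0.46, and MRPL42, with the longest 3′ UTR, holds neither word and is at -0.24.

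Promoters, taken from RefSeq (GRCh38.p14) as 250 bases before to 50 after the start of the gene, were matched for 64 of the 73 members. They were searched on both strands for CCGGAAGT of the ETS motif and for the 10-letter YY1 and NRF1 motifs spelled in capitals in the examples that follow. YY1 and ETS factors and NRF1 are known regulators of nuclear genes with mitochondrial products. The YY1 letters were in 12 member promoters (18.8%), against 2.85% of 10056 tested coding genes and 1.28% of all 27305 promoters. The ETS letters were in 11 (17.2%), against 9.02% and 4.44%, and the NRF1 letters in 1 (1.56%), against 2.39% and 1.36%. By call, the YY1 letters were in 3 of 21 lower members, 0 of 9 higher members and 9 of 34 that did not pass. The motifs do not overlap in these letters, and a match describes the sequence and not a bound site. Because the window runs 50 bases past the start of the gene, a match may also lie in transcribed or coding sequence. The part of this in the shares was not tested.

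Examples are given for the commonest motif, in 2 lower members and 1 that did not pass, and for MRPL17, which has the NRF1 letters and is the deepest fall. The motif is in capitals, 5′ to 3′ on the strand of the gene.
MRPS30, YY1, chr5:44808952-44808977, plus strand: cgcgggcaAAGATGGCGGcggccagg
MRPS10, YY1, chr6:42217835-42217860, minus strand: ggaccggcAAGATGGCGGcgcggaca
MRPS18B, YY1, chr6:30617855-30617880, plus strand: cgtacgtcAAGATGGCGGcgtctgta
MRPL17, NRF1, chr11:6683404-6683429, minus strand: gctctgatGCGCATGCGCaaacacgt

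In MRPS30, MRPS10 and MRPS18B the YY1 letters start 14, 10 and 24 bases past the RefSeq start of the gene, and in MRPL17 the NRF1 letters start 81 bases before it (position -81). MRPS30 was lower by 0.48 and MRPS10 by 0.24 on the log2 scale (log2 fold changes -0.48 and -0.24), whereas MRPS18B did not pass at 0.08.

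Mitochondrial ribosome proteins that carry other names moved little. AURKAIP1, a small subunit protein first known as a partner of Aurora A kinase, was lower at 114 ± 8.08 against 127 ± 10.2 CPM (SD, n = 6 each), a log2 fold change of -0.16. DAP3 (-0.09), PTCD3 (-0.14) and CHCHD1 (0.01) of the small subunit and GADD45GIP1 (-0.11) of the large subunit did not pass the test, with PTCD3 at an edgeR adjusted p of 0.0520.

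Among 25 tested factors that assemble the ribosome or modify its RNA, 4 were lower (16%) and 8 higher (32%). Over all tested genes 30.1% were lower and 32.1% higher. MPV17L2, an inner membrane protein needed for assembly, was measured at 12.6 ± 0.549 against 31.7 ± 1.98 CPM, a log2 fold change of -1.32, with no overlap between groups. NGRN (-0.40), which acts on the large ribosomal RNA, and MRM2 (-0.24), which methylates it, were lower too. YBEY, an RNA processing enzyme of the small subunit, was higher at 16.0 ± 0.763 against 7.77 ± 0.672 CPM, a log2 fold change of 1.03. TFB1M (0.34) and METTL15 (0.32), which methylate the small ribosomal RNA, were higher as well.

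Translation factors of the organelle showed 3 lower (20%) and 4 higher genes (26.7%) among 15, against 30.1% and 32.1% of all tested genes. MRRF, the ribosome recycling factor, had a log2 fold change of -0.39, and the elongation and recycling factors GFM1 and GFM2 had -0.20 and -0.19. The initiation factors MTIF3 (0.48) and MTIF2 (0.17) and TACO1 (0.17), the translational activator of cytochrome c oxidase subunit I, were higher.

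Genes that transcribe the mitochondrial genome held a fall larger than that of any member. TFAM, which packages mitochondrial DNA and starts its transcription, was measured at 53.9 to 72.8 CPM in siCHKA samples and 181 to 201 CPM in siNT samples, a log2 fold change of -1.58 (standard error 0.08, edgeR adjusted p = 1.15e-11). The other 4 tested genes of this group were higher, MTERF1 (0.76), TEFM (0.23), POLRMT (0.20) and TFB2M (0.17). They make up 80% of a list of only 5 genes, against 32.1% higher over all tested genes. Neither mitochondrial ribosomal RNA passed the test, at 0.10 for MT-RNR1 and 0.33 for MT-RNR2 with standard errors of 0.28 and 0.39, and none of the 13 mitochondrial messenger RNAs did, with a median of -0.20. Their spread between samples was wide, MT-RNR2 running from 517 to 2468 CPM within siNT, so a change of that size was not detectable here.

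For comparison, the 77 tested genes of the cytosolic ribosome had 2 lower members (2.6%), RPL6 (-0.85) and RPL14 (-0.29), and 19 higher ones (24.7%). Their median log2 fold change was 0.10. The 77 tested nuclear genes of oxidative phosphorylation had 10 lower (13.0%), with UQCR10 (-1.72) the deepest, 22 higher (28.6%) and a median of 0.04. Over all tested genes 30.1% were lower and 32.1% higher. The difference between the 3 sets was not tested.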

How the data were processed

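RNA from C4-2 cells was sequenced in 12 samples. Single-end reads (40 bases) were mapped by the authors with TopHat2 2.0.4 to GRCh37 and assigned to Ensembl genes with HTSeq 0.5.3p9, and raw counts were deposited in 4 files per sample, which were summed here. DESeq 1.10.1 is also named in the submitters' processing notes. The labels mention flow-sorted cells and a miRNeasy kit, which was not examined. Counting strand is not given in the sources used here. Identifiers were named through GENCODE release 44 (82.8% matched) and coordinates are GRCh38. MRPL12, MRPL45, MRPL46 and MRPS21 had no matching identifier and were not analysed here.

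Counts were tested in R 4.3.3 with edgeR 4.0.16 (its filterByExpr function, TMM scaling, quasi-likelihood test of siCHKA against siNT with no covariate, Benjamini-Hochberg adjustment over 14501 genes). All 73 members passed the filter. CPM are TMM-scaled, and log2 CPM used a prior count of 2. A level of 3 counts equals 0.124 to 0.281 CPM, a floor that covers counting error only. Ambiguous reads were 4.20% to 4.46% of reads on genes, 29 members overlap another coding gene with counts and 33 have a pseudogene named after them, so their levels are less sure. Single genes were also compared by exact two-sided permutation tests. In counts simulated for this comparison (14054 genes), 97.8% of 93 changes of 1 and 77.3% of 97 changes of 0.5 on the log2 scale were recovered, with 5 of 13864 unchanged genes called. The simulation gave every gene the same dispersion, held no sets of replicates and changed few genes, whereas 62.2% of genes passed in the data. These rates therefore may not hold for the data.

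Named genes were the 10 largest falls and 10 largest rises past the threshold, the S18 paralogs, the 3 highest and 3 lowest levels per kb, MRPL30, and in other lists the other ribosome proteins and up to 3 falls and 3 rises each; other members named were chosen after their values were seen. Subunits follow the place of the protein in the ribosome. Members, lists and words were chosen with earlier results of these data known. Alternatives were RLE normalization, DESeq2 1.42.0, other filters, a replicate block, subsets of samples, each replicate left out, a 1.5-fold minimum, a single count file for each sample and an offset for exon length and GC content. The fit with siNT replicates 1 to 4 only was added after seeing the data. Python 3.11.15 with scipy 1.17.1 was used for other steps.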

Additional observations from a re-analysis of the deposited data

Results flagged for a closer look

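Values of the named members were examined in each group of 6 samples for a sample far from the others, by the gap to its nearest neighbour as a share of the group's range. With 62 groups examined, about 1 in 20 passes Dixon's limit by chance, or 3.1 groups, and 3 did. MRPL35 and MRPS30 were each highest in siNT replicate 4, at 84.2 CPM against 74.7 for the next sample (share 0.704) and at 126 against 107 CPM (share 0.731). MRPL19 was highest in siCHKA replicate 1, at 101 against 86.8 CPM (share 0.751). All 3 genes stayed lower after siCHKA without the sample concerned.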

How the results depend on the processing

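The 10 named falls and the rise of MRPL28 kept their direction and passed the test under all 25 alternatives, with MRPL17 between -1.48 and -1.20 and MRPL28 between 0.36 and 0.53 on the log2 scale. The count of lower members, 25, became 43 with the offset for GC content and length, 41 with that offset and the replicate block and 4 with a 1.5-fold minimum. The count of higher members, 10, became 2 with replicates 1 to 3 only and 0 with the 1.5-fold minimum. The median log2 fold change of the small subunit became -0.24 with siCHKA replicates 1, 3 and 5 only, and that of the large subunit -0.16 with the offset, with or without the block. Apart from the offset, which uses other scaling by construction, the cause was not tested. Leaving out each replicate gave 25 to 29 lower and 8 to 11 higher members, medians from -0.12 to -0.06 (small subunit -0.17 to -0.11, large subunit -0.08 to -0.04) and CHKA at -4.09 to -3.79. With the replicate number as a block, 26 members were lower and 10 higher. Same-numbered samples of the groups did not deviate together (mean r -0.04, from -0.40 to 0.32, and 1 of 6 correlated best with its own number), so the numbers were not taken as pairing. Among the named genes, these had not passed and changed sign: MRPS18A (0.016 with siCHKA replicates 1, 3 and 5), MRPL51 (0.024) and MRPS15 (0.14) with replicates 4 to 6, MRPS17 (0.014 with siCHKA replicates 2, 4 and 6), and MRPL53 at 0.019 with at least 10 counts, 0.011 with the block, 0.20 with replicates 1 to 3, 0.010 with siCHKA replicates 2, 4 and 6, 0.063 with siNT replicates 1 to 4 and -0.10 to 0.048 when replicates were left out. Depth limits MRPL53 most, at 1.62 to 2.92 CPM in siNT samples.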
